A study of Homo sapiens with 2 samples.

Results

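The genes described here are 9 members of the JAK-STAT pathway, namely the 4 Janus kinases JAK1, JAK2, JAK3 and TYK2, the 3 transcription factors STAT3, STAT5A and STAT5B, and the 2 inhibitors SOCS1 and SOCS3. They were chosen by name among the 17280 genes that the promoter arrays annotate, and every probe with one of these names in its annotation was taken, whatever its value. This gave 293 distinct probes of 474411 genomic probes, 82 of them on the first array of the set (chIP1, which holds JAK1 and JAK2) and 211 on the second (chIP2, which holds the other 7 genes).

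In order to find where GATA1 was located on promoters in megakaryocytic leukemia, chromatin of Meg-01, a human cell line of that lineage, was immunoprecipitated (ChIP) and hybridized to 2 promoter arrays. The cells were the parental line, untreated and without the knockdown constructs made elsewhere in the study. An antibody to GATA1 (C-20) gave the IP DNA, labeled with Cy5, and normal goat IgG gave the background DNA, labeled with Cy3. The arrays carry different probes, so every probe analysed here has a value from 1 hybridization, in a single dye orientation. No error between samples and no p-value can be given for any value, and only the scatter between neighboring probes stands beside the values. Formaldehyde-fixed chromatin was sheared to fragments longer than the usual distance between probes, so adjacent probes read overlapping DNA. DNA arrays hold no expression, so the identity of the cells could not be checked against marker genes.

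GATA1 is a transcription factor of red cells, platelets and their precursors that binds DNA at GATA sequences. Janus kinases sit on the inner side of cytokine receptors, among them that for erythropoietin, and are switched on when the cytokine binds. They phosphorylate STAT proteins, which then enter the nucleus and act on their target genes. SOCS proteins are made in response to this signal and shut it off at the receptor or at the kinase.

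Each value below is log2 of IP over IgG with the median of its array set to 0, so a positive value leans to GATA1 and a negative one to IgG. Probes were read in windows of 3 adjacent probes, and a window mean of at least 1, that is 2-fold, was called IP-side, while a mean of at most -1 was called IgG-side. The raw signals were low on both arrays, with a median of 543 and 544 in the IP channel against 342 and 340 for negative control spots. Over all probes kept, the log2 ratio had an SD of 0.97 on each array. For each probe the percentile of its mean log intensity over both channels on its array is given as its intensity percentile, since a ratio of signals close to the negative controls rests on a small difference.

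All 293 probes passed the filters and formed 256 windows. An IP-side window was present at 5 of 9 genes (JAK2, STAT3, STAT5A, STAT5B and SOCS1), against 57.1% of all 17054 genes with a window on the arrays. STAT5A and STAT5B were counted through the same 3 windows, so they are not separate calls. An IgG-side window was present at 3 of 9 (JAK1, JAK2 and SOCS3), against 52.9% of all genes, and JAK2 alone had both, which 31.3% of all genes had. No member reached 3-fold on either side, where 20.6% of all genes did so toward the IP and 22.3% toward the IgG. By windows, 14 of 256 (5.47%) were IP-side and 7 (2.73%) were IgG-side, against 7.62% and 9.65% of all windows. The median of the highest windows was 1.11 for the 9 genes and 1.09 for all genes, and that of the lowest windows was -0.95 and -1.05. On the IP side the count of genes and the median highest window of the 9 lay near those of all genes, while on the IgG side and at 3-fold their counts and shares were lower than over all genes. The median number of windows was 30 for the 9 genes and 23 for all genes. Counts and highest windows by gene were therefore not compared on equal terms.

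**Figure D1:**
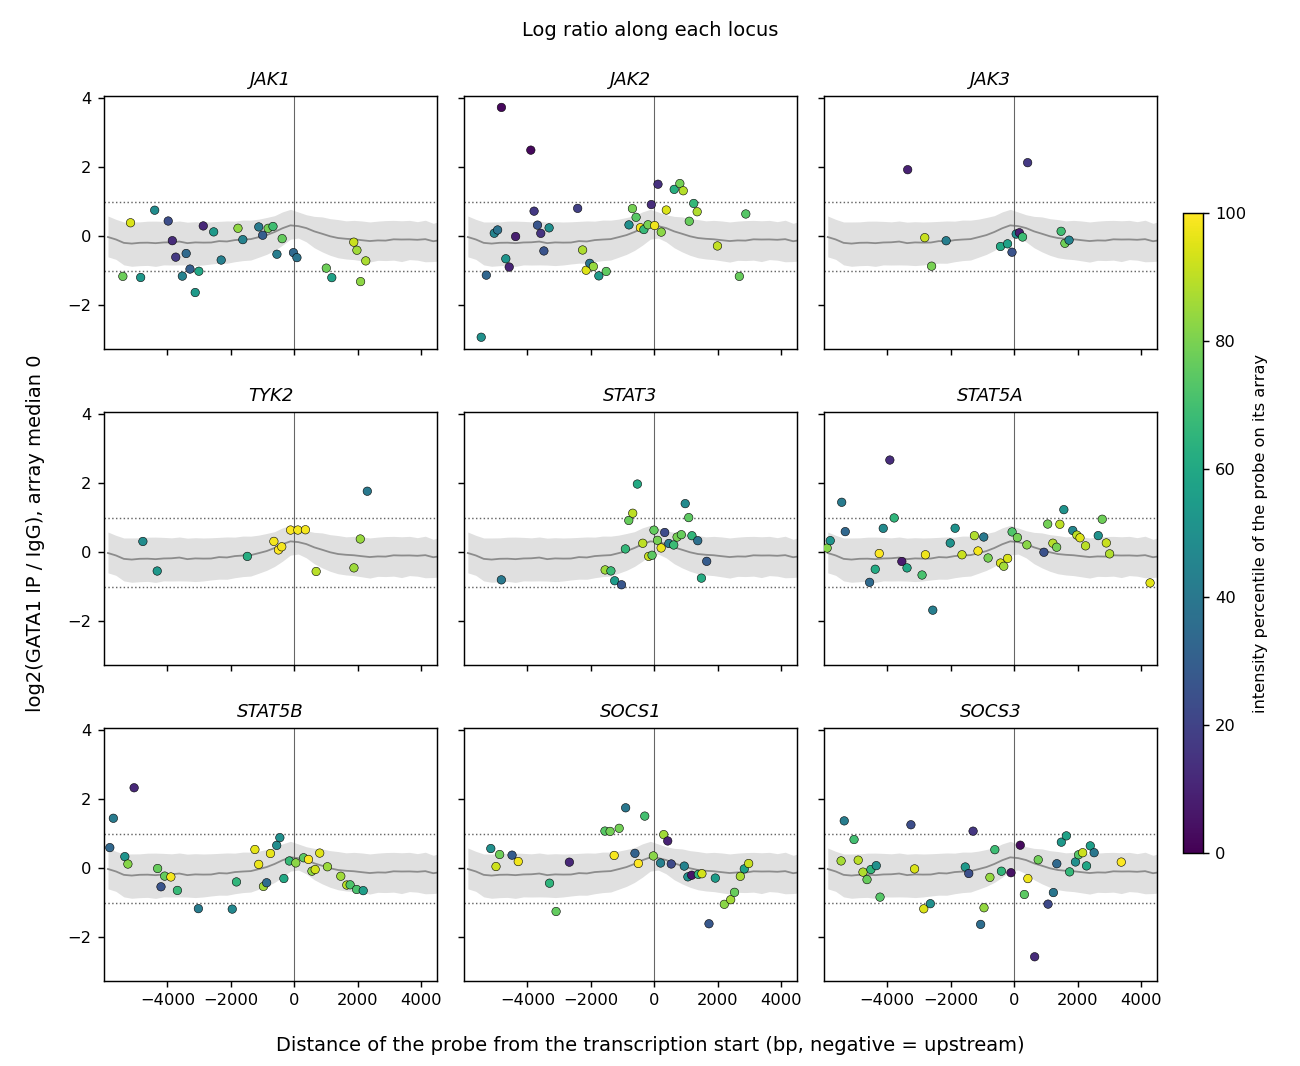
Log ratio of every probe (y, log2 of GATA1 IP over IgG, array median 0) against its distance from the transcription start given by the array (x, bp), 1 panel per gene. Points are single probes colored by intensity percentile, the gray line and band are the median and the interquartile range of all genes on the arrays, and dotted lines mark 2-fold. Probes beyond the axis are not drawn. JAK2 rises past 2-fold just after its start and SOCS1 just before its start, while JAK1 lies mostly under 0.

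The starts on the arrays were first set against the RefSeq starts of GRCh38.p14, by comparing the offset of each gene with the median offset of the other genes within 500 kb. The genome build of the array coordinates is not given in the sources used here, so no coordinate was converted. For 7 of the 9 genes a RefSeq start lay within 100 bp of the array start. The nearest RefSeq start of SOCS3 lay 406 bp downstream of that of the array. The nearest RefSeq start of JAK1 lay far upstream, at -80265 bp from the array start, judged from 3 neighboring genes, so the JAK1 probes do not tile a start that RefSeq lists. All JAK1 values below belong to that stretch and not to the RefSeq promoters of the gene.

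Promoter sequences from RefSeq are shown for JAK2, STAT3 and SOCS1, which had an IP-side stretch near but not at the start. The probes of these stretches were centered 379 to 1102 bp from the array start for JAK2. For STAT3 they were at -804 to -364 bp and for SOCS1 at -1264 to -610 bp. These stretches lie outside the printed sequences, so whether they hold GATA or STAT letters was not tested. JAK3 is also shown, since it held the only GATA match among the 8 genes with a RefSeq start within 500 bp. Each runs 5′ to 3′ from 250 bp upstream to 50 bp downstream of the RefSeq start on the strand of the gene. Capitals mark the match to AGATAA or AGATAG, or to TGATAA or TGATAG, on either strand.
JAK2, chr9:4985022-4985321, plus strand: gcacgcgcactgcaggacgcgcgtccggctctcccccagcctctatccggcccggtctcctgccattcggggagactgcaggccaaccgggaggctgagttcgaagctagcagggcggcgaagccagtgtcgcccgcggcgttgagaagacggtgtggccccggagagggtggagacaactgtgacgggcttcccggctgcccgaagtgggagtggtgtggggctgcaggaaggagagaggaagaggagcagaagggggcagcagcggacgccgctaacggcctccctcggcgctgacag
STAT3, chr17:42388393-42388692, minus strand: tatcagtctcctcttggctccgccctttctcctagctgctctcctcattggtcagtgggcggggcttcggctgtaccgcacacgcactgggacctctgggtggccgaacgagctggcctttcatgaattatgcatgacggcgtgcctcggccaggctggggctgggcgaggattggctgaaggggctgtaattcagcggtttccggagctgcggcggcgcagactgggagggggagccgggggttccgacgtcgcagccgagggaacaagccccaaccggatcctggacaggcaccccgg
SOCS1, chr16:11256155-11256454, minus strand: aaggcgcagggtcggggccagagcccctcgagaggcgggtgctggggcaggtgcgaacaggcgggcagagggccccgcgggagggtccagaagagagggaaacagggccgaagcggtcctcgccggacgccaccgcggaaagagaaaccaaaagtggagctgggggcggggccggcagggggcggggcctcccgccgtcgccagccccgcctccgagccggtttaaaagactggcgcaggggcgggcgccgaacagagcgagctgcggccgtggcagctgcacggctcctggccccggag
JAK3, chr19:17847933-17848232, minus strand: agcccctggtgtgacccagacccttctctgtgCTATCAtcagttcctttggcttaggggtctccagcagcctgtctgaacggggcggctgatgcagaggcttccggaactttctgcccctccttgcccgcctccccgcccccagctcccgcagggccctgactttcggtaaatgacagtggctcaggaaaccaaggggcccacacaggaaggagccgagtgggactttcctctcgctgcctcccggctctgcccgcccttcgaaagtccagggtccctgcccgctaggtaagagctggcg
The match in JAK3 reads CTATCA on the printed strand, at -218 to -213 bp from the start. Such a match was present in 1 of 8 promoters here and in 24.97% of the 35116 promoters of this length in RefSeq. The bare letters GATA, which overlap these motifs, were present in 4 of 8, against 49.71% of all promoters. The STAT letters TTCNNNGAA were present in none of the 8, against 7.657% of all, which says only that these letters are not in these windows.

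JAK2, the kinase of the erythropoietin receptor, had more IP-side windows than any other member, 7 of 46. Its 51 probes lay on chromosome 9 between 4969761 and 5012956, with a mean of 0.19 and an SD over probes of 1.06, the widest scatter among the 9 genes. Its highest window was 1.39 (2.63-fold) and lay inside the gene, centered 805 bp downstream of the start. It stood at the 68.4th percentile of the highest windows of the genes on its array. The 3 probes of this window were 1.35 at 627 bp, 1.52 at 805 bp and 1.31 at 912 bp, with an SD of 0.11. Their raw signals were 798, 1047 and 1295 in the IP channel against 390, 431 and 503 in the IgG channel, where negative control spots had 342 and 303. The stretch made by the IP-side windows there ran over 776 bp, and all 5 of its probes were positive, with a mean of 1.07 at an intensity percentile of 80.3. From 798 bp upstream to 1351 bp downstream of the start every JAK2 probe was positive, including 4 of 4 within 500 bp upstream and 4 of 4 within 500 bp downstream. Within the printed promoter window the probes at -198, -94 and 10 bp read 0.33, 0.91 and 0.30, lower than those inside the gene.

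The other 4 IP-side windows of JAK2 lay upstream, at -5043 to -3680 bp, and rested on 2 probes. The probe at -4817 bp read 3.73, the highest of all member probes, and that at -3891 bp read 2.49. Both were among the dimmest on the array, at intensity percentiles of 2.21 and 1.98, with raw IP signals of 415 and 381 and raw IgG signals of 304 and 306. The 7 other probes of that stretch were between -0.90 and 0.72, and the median of its 9 probes was 0.18. With a normexp background correction, which adds an offset to dim signals, the mean of this distal stretch went from 0.66 to -0.05, while that of the stretch inside the gene stayed at 1.07.

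JAK2 also leaned to the IgG in places. Its lowest window, -1.33, lay at the upstream end of the tiled region, centered at -5293 bp, with probes of -2.93, -1.13 and 0.08. Another IgG-side window, -1.02, was centered at -1748 bp with probes of -0.88, -1.15 and -1.03. A separate group of probes between 36178 and 37682 bp downstream of the start went from negative to positive values, and its last 4 probes read 0.73, 0.61, 1.36 and 0.83 at intensity percentiles of 4.98 to 15.6.

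JAK1, the kinase shared by interferon receptors and many interleukin receptors, was the member that leaned most to the IgG. Its 31 probes (chromosome 1, 65061730 to 65069443) had a mean of -0.41, at the 11.7th percentile of all genes, and only 10 were positive. None of its 29 windows was IP-side, and its highest window was 0.35, at the 5.38th percentile of highest windows on that array. Its lowest window, -1.20 at -3126 bp, held probes of -1.02, -1.64 and -0.96. The low values were not restricted to that window, since the 7 probes downstream of the start were all negative, from -0.18 to -1.32. At the start itself the probes at -30 and 79 bp read -0.48 and -0.63, where the median of all genes was 0.28 within 500 bp upstream and 0.26 within 500 bp downstream.

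JAK3, the kinase that pairs with the common gamma chain of interleukin receptors in lymphoid cells, had no window past 2-fold on either side. Its highest window was 0.73 and carried 1 high probe, 2.13 at 424 bp downstream, beside -0.03 and 0.09. A second high probe, 1.92 at -3356 bp, was followed by -0.05 at -2818 bp. Both were dim, at intensity percentiles of 16.5 and 9.22. The 3 probes within 500 bp upstream of the start were all negative, and the probe at -208 bp, next to the GATA match printed above, read -0.23.

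TYK2, the kinase of the interferon and interleukin-12 receptors, was covered by 13 probes and 7 windows, the fewest of the 9 genes. Its highest window, 0.64 at 109 bp downstream, was the most even of all, with 3 probes of 0.64 and an SD of 0.0046, at intensity percentiles of 98.3 and above. None of its windows was negative, the lowest being 0.08, at the 97.2nd percentile of lowest windows on its array. Only 1 probe passed 2-fold, 1.76 at 2297 bp downstream. Of its probes 4 were also annotated to CDC37, a kinase chaperone gene.

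The 4 kinases therefore differed in both directions at their array starts. JAK2 and TYK2 were positive at all probes within 500 bp on either side, JAK1 was negative at all of them, and JAK3 was negative upstream and mixed downstream.

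STAT3, which carries signals of the interleukin-6 family, had 2 IP-side windows of 23. Its highest window was 1.34 (2.52-fold), centered at -680 bp, with probes of 1.97 at -533 bp, 1.12 at -680 bp and 0.91 at -804 bp. It ranked at the 68.6th percentile of all genes. The joined stretch covered 493 bp, and its 4 probes were all positive, with a mean of 1.07 at an intensity percentile of 79.3. Nearer to the start the values were lower, -0.13 at -177 bp and -0.09 at -71 bp, which are the probes centered within the printed promoter, and 0.63 at -10 bp, at its downstream edge. A smaller rise inside the gene reached 1.40 at 974 bp and 1.00 at 1084 bp without an IP-side window. No STAT3 window was IgG-side, and 17 of its 26 probes were positive.

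STAT5A and STAT5B, the close relatives that act downstream of JAK2 at the erythropoietin and prolactin receptors, are transcribed away from each other and shared 29 probes between them. Their IP-side windows were the same 3 windows and count as a single measurement. The highest, 1.45 (2.72-fold), was the highest of all 9 genes and lay upstream of both, at -3918 bp from STAT5A and -7222 bp from STAT5B. It held probes of 0.69, 2.66 and 0.99, with an SD of 1.07. The middle probe stood at an intensity percentile of 12.6 with raw signals of 479 and 321, and it was the only probe past 2-fold in the joined stretch of 758 bp, whose 5 probes had a median of 0.69. With normexp the mean of that stretch went from 0.80 to 0.42.

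Within their own genes the 2 STAT5 loci differed. Between 500 and 2000 bp downstream of the start 7 of 8 STAT5A probes were positive, with a median of 0.56, whereas 2 of 8 STAT5B probes were, with a median of -0.16, and all genes had a median of 0.01 there. The highest of the STAT5A probes in that zone was 1.23 at 1565 bp. No window of either gene was IgG-side, and their shared lowest window was -0.81. A separate group of 6 STAT5B probes 76470 to 77199 bp downstream held 5 negative values and none past 2-fold.

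SOCS1, an inhibitor that blocks the kinase activity of JAKs, leaned to the IP on the upstream side of its start. Its highest window was 1.11 (2.15-fold), centered at -903 bp, with probes of 1.74 at -903 bp, 1.15 at -1107 bp and 0.42 at -610 bp. All 7 SOCS1 probes between 500 and 2000 bp upstream were positive, with a median of 1.06, where the median of all genes was -0.02 and 49.2% of probes were positive. A further probe past 2-fold stood at -301 bp, with raw signals of 912 and 434. The probe in the printed promoter, at -30 bp, read 0.35. Past the start the values fell away, with 6 of 8 probes negative between 500 and 2000 bp downstream and 5 of 6 negative beyond 2000 bp, and the lowest window, -0.99 at 1923 bp, stayed short of the IgG-side threshold. Of its 34 probes 7 were also annotated to TNP2, a gene of sperm chromatin. The highest window of SOCS1 stood at the 53.8th percentile of all genes.

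SOCS3, the inhibitor induced by interleukin-6 and erythropoietin that acts on receptors and JAKs, had 3 IgG-side windows and no IP-side window among 36. Its 40 probes had a mean of -0.05, at the 43.1st percentile of the genes on its array, and 21 of them were positive. Its lowest window, -1.21, was centered 431 bp downstream of the start, with probes of -0.77 at 321 bp, -0.31 at 431 bp and -2.57 at 645 bp. The probe of -2.57 was dim, at an intensity percentile of 12.3 with raw signals of 364 and 397. A second IgG-side window, -1.02, lay at -951 bp with probes of -1.63, -1.15 and -0.27. Both probes within 500 bp upstream of the array start were under 0, at -0.09 and -0.14. Its highest window was 0.81, far upstream at -5046 bp.

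**Figure D2:**
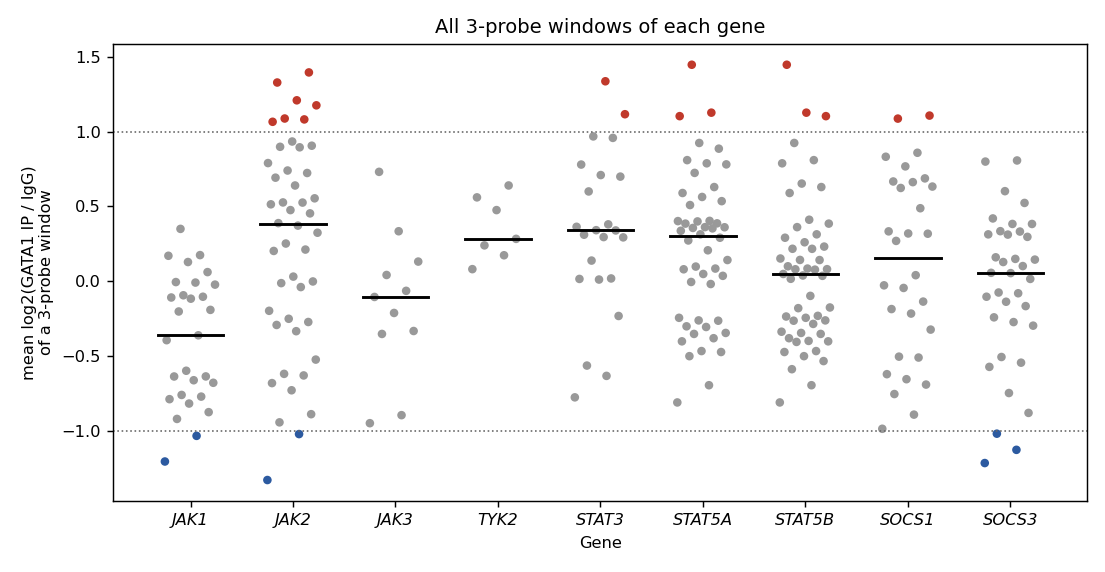
Mean log2(GATA1 IP / IgG) of each 3-probe window (y) for each gene (x). Red points are IP-side, blue points IgG-side, gray points neither, black bars the median window of the gene, and dotted lines 2-fold. JAK2 has both red and blue points, JAK1 has no red point, and the 3 red points of STAT5A and STAT5B are the same windows.

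In order of the highest window the genes ran STAT5A and STAT5B (1.45), JAK2 (1.39), STAT3 (1.34), SOCS1 (1.11), SOCS3 (0.81), JAK3 (0.73), TYK2 (0.64) and JAK1 (0.35). The 3 probes within these windows had SDs of 1.07 for STAT5A and STAT5B, 0.11 for JAK2, 0.56 for STAT3, 0.66 for SOCS1, 0.57 for SOCS3, 1.21 for JAK3, 0.45 for JAK1 and 0.0046 for TYK2. Each step between neighbors in this order was smaller than the larger of the 2 SDs. These SDs describe scatter between probes and not the error of a window mean, so whether adjacent ranks differ cannot be told.

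The order also moved between ways of processing. With normexp the highest windows were 1.36 for STAT3, 1.31 for JAK2 and 1.04 for SOCS1, while STAT5A and STAT5B had 0.87 and 0.83. The count of members with an IP-side window then was 3 of 9, against 33.1% of all genes. With windows of 5 probes JAK2 (1.11) and SOCS1 (1.08) were past 2-fold, STAT5A and STAT5B stood at 0.96 and STAT3 at 0.87, and 34.1% of all genes had such a window. No member had an IgG-side window with normexp, where 23.9% of all genes did, and with windows of 5 probes 1 member did (JAK1, -1.06), against 33.5%. JAK2 and SOCS1 were past 2-fold in each of these settings and with loess on intensity, which gave 1.45 and 1.16.

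**Figure D3:**
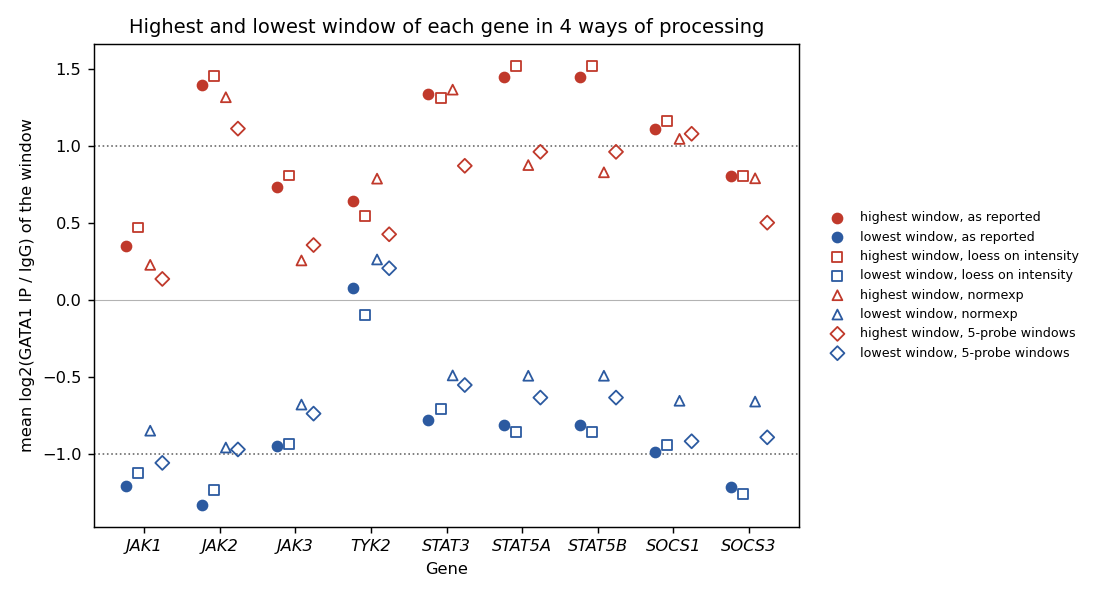
Highest (red) and lowest (blue) window of each gene (y, mean log2 of GATA1 IP over IgG) as reported (filled circles), after loess on intensity (squares), after normexp (triangles) and in windows of 5 probes (diamonds), with dotted lines at 2-fold. The red symbols of JAK2 and SOCS1 all lie above 1, and no blue triangle reaches -1.

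Set side by side by position, the 9 genes had a median of 0.04 over 26 probe positions within 500 bp upstream of the start, where all genes had 0.28, and 13 of these (50%) were positive against 67.5% of all. Within 500 bp downstream they had a median of 0.27 with 22 of 26 positive, beside 0.26 and 69.2% for all genes. Between 500 and 2000 bp upstream the medians were 0.12 and -0.02, and between 2000 and 6000 bp upstream they were -0.03 and -0.18. The general rise at starts that the arrays showed was thus present over the 9 genes within 500 bp downstream. Within 500 bp upstream the JAK1, JAK3 and SOCS3 probes were all negative. Those of STAT5A (1 of 4 positive), STAT3 (2 of 4) and STAT5B (2 of 3) were mixed. Those of JAK2, TYK2 and SOCS1 were all positive. The JAK1 start on the array is not one that RefSeq lists. For SOCS3 the negative values hold for the start on the array only, since the RefSeq start lay 406 bp downstream of it. The SOCS3 probes at 192 bp (0.66) and 321 bp (-0.77) then fall upstream.

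High single probes at these genes seldom came in pairs. Of the 25 member probes at 1 or more, 9 (36%) had an adjacent probe that was also at 1 or more, beside 55.9% of such probes on both arrays. On the IgG side 10 of 26 (38.5%) did, beside 66.3%. The share of IP-side probes at an intensity percentile of at most 25 was 40% at the members and 39.5% overall.

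The other genes of the pathway were read from a list of 51, of which all 51 were on the arrays. An IP-side window was present at 30 of 51 (58.8%) and an IgG-side window at 24 of 51 (47.1%), with 16 having both, and the medians of the highest and lowest windows were 1.13 and -0.96. These shares were near the 57.1% and 52.9% of all genes. At least 3-fold on the IP side was reached by 15 of 51, against 20.6% of all genes. EPOR, the erythropoietin receptor, was not among them, with a highest window of 0.93.

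By role, 5 of 8 ligands, 9 of 18 receptors, none of the 4 other STATs, 12 of 16 inhibitors and adaptors and 4 of 5 known targets had an IP-side window. Over all genes the share was 57.1%, and these groups of 4 to 18 genes are too small to rank the roles. The ligands past 3-fold were IL6 (highest window 3.77) and OSM (1.97), both cytokines that signal through gp130. Among receptors they were those for growth hormone, GHR (2.55), and prolactin, PRLR (2.48), the interferon gamma chain IFNGR2 (2.41), and 3 interleukin receptor chains, IL7R (2.40), IL2RG (2.25) and IL2RA (1.67). The highest windows of GHR and PRLR lay inside the genes, 140930 and 137120 bp downstream of the start. Among inhibitors and adaptors they were PIAS2 (2.09), SOCS5 (2.05), SOCS2 (1.88), CISH (1.76), PIAS1 (1.68) and CBL (1.63), of which SOCS5, SOCS2 and CISH belong to the SOCS family. Of the other SOCS genes on the list, SOCS4 had 1.30, SOCS7 0.97 and SOCS6 0.58, beside 1.11 for SOCS1 and 0.81 for SOCS3. CCND1 (1.69), the gene of cyclin D1, was the only one among the targets. Of these 15 genes, 12 also had IgG-side windows, between 1 and 9 each, and OSM, IL2RA and SOCS2 had none. An IgG-side window was present at 52.9% of all genes. The highest windows of 7 of the 15 had a mean intensity percentile of at most 25, namely GHR (12.3), IL7R (12.3), CBL (15.9), PRLR (17.5), IFNGR2 (18.2), PIAS1 (18.8) and IL6 (24.4). The lowest highest windows were those of IL6ST (-0.31, from 2 windows), IL3RA (0.12, from 3 windows) and STAT2 (0.48, from 9 windows).

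**Figure D4:**
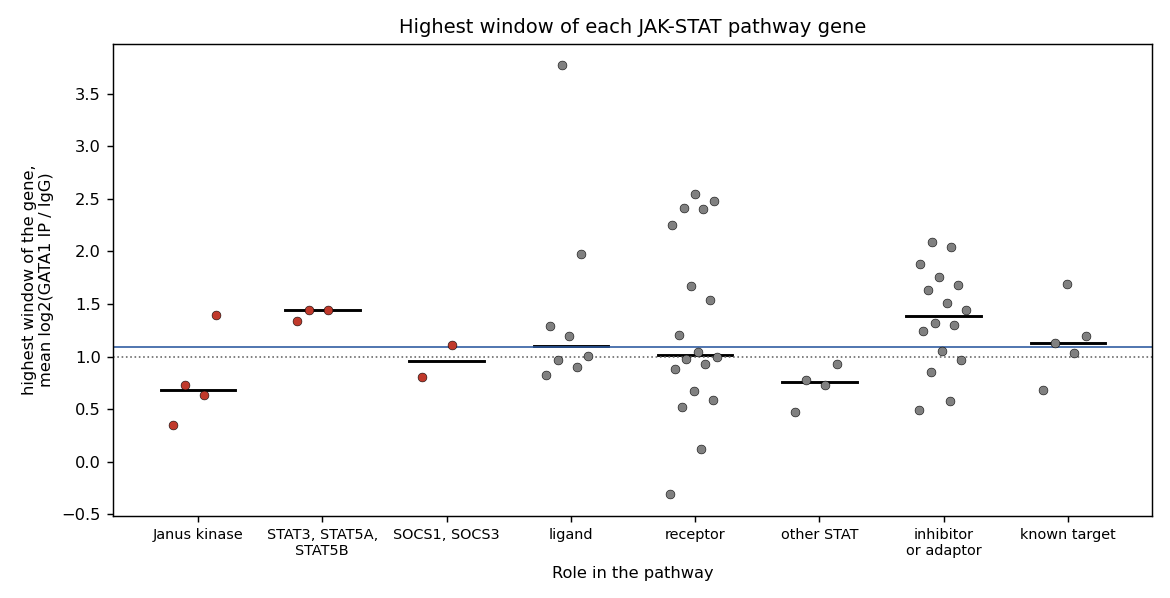
Highest 3-probe window (y, mean log2 of GATA1 IP over IgG) of the 9 genes (red) and of 51 other pathway genes (gray) by role (x). Black bars are group medians, the dotted line is 2-fold and the blue line is the median of all genes, 1.09. STAT5A and STAT5B share a window, none of the red points exceeds 1.45, and IL6 stands alone at 3.77.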

How the data were processed

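GATA1 IP DNA (Cy5) and IgG DNA (Cy3) of untreated Meg-01 cells were co-hybridized to a set of 2 Agilent promoter arrays, 1 hybridization each. Per the file headers, the deposited intensity values were extracted with Agilent Feature Extraction 9.5.3.1, which subtracted a fitted spatial surface, detrended and dye-normalized the signals without local background subtraction. The log10 ratio of each spot was deposited by the authors as Cy5 over Cy3, also as the series value table, beside a deposited p-value that the scanner software gave each log ratio.

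Here log2 of the processed IP over IgG intensity was taken, with each array's median set to 0. Left out were control spots, non-uniform spots and probes that cleared the background in neither channel. Saturated spots stayed in. On chIP1 237004 of 237210 and on chIP2 236864 of 237201 genomic probes were kept. Windows held 3 adjacent probes, each at most 1000 bp from the next, and the value of a gene was the highest or lowest window with a probe annotated to it. The number of arrays limits the precision, and no test was possible. The members, the list of 51 pathway genes and the choices of analysis were made with earlier results of these data known. The text names EPOR, the pathway genes at 3-fold or more and the 3 lowest, and SOCS4, SOCS6 and SOCS7 were named after their values had been seen. Values of 1 further gene that this rule names are not reported here.

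Alternatives tried were windows of 5 probes, single probes, thresholds of 3-fold and 1.5-fold, normexp with an offset of 50, loess on intensity, the value table of the series, dim probes kept, both channels required above background, deposited p-values (under 0.001 for the center probe and under 0.1 for a neighbor), and subtraction of the all-gene median in 500 bp bins around the start, up to 6000 bp away. Normexp started from the raw mean signals and local background, so it lacked the detrending and dye normalization of the processed signals. Window finding was tested on simulated data. Python 3.11.15, numpy 2.4.6, pandas 2.3.3, R 4.3.3 and limma 3.58.1 were used.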

Additional observations from a re-analysis of the deposited data

How the results depend on the processing

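No paired analysis was possible because the 2 arrays share no probes and each value comes from 1 hybridization. As reported, 5 members had an IP-side and 3 an IgG-side window, from 14 and 7 windows, and 30 and 24 of the pathway genes did. With normexp these were 3 and 0 members and 6 and 0 windows, and the pathway genes with an IgG-side window were 13. Single probes gave 8 and 7 members, 25 and 26 probes and 48 and 41 pathway genes. Windows of 5 probes gave 2 and 1 members, 5 and 1 windows and 17 and 15 pathway genes. At 1.5-fold there were 8 and 8 members and 51 and 39 windows, with 41 pathway genes on the IgG side, and 45 on the IP side. At 3-fold no member or member window was left on either side, with 15 and 7 pathway genes. With the deposited p-values 8 members had an IgG-side window, the windows were 30 and 25 and the pathway genes 46 and 41. No share of all genes was taken for single probes, 1.5-fold or the deposited p-values. The counts under those settings therefore show nothing particular to these genes. Loess, the series value table and both other filters on dim probes kept every count within 1.5 times, as did removal of the distance trend, which moved SOCS3 past 2-fold on the IP side (1.01). Of 72 highest windows under these settings 63 stayed on their side of 2-fold, and so did 63 of 72 lowest windows. Some settings could hardly move a window, since the series value table held the same ratios and all 293 member probes passed the filters. STAT5A and STAT5B also shared windows, so these counts are no measure of stability. The cause of the shifts between settings was not tested. Signals near those of the negative controls limit what can be said of the distal JAK2 and STAT5 windows.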
